A study of Mus musculus with 23 samples.

Results

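The transcripts described here encode 7 enzymes of heme synthesis, Alas2, Alad, Uros, Urod, Cpox, Ppox and Fech, measured in mouse spleen on 23 one-colour expression arrays. Members were taken by gene symbol, a probe had to have a detection p-value under 0.05 on at least 3 arrays, and the brightest such probe stood for its gene. This left 6 of the 7 members among 17176 features tested, each of the 6 read by 1 probe that was detected on 23 of 23 arrays. Cpox, the coproporphyrinogen oxidase, had 2 probes, detected on 1 and 2 of the 23 arrays with signals of 85.2 to 147 and 70.8 to 133, and was not tested.

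Spleens came from 10-week-old male mice of the inbred strains C57BL/6J and DBA/2J, taken 24 h after whole-body gamma irradiation or sham exposure, and each array held RNA pooled from 2 mice. The groups were control, low dose (10 cGy at 9 cGy per hour from 137Cs) and high dose (1 Gy at 6 Gy per min from 60Co) in each strain, with 4 pools in each group and 3 pools in DBA/2J low dose. Dose, dose rate and source change together and cannot be told apart, and p-values reflect how far pools of a group spread, since no mouse was measured alone.

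Heme is built from glycine and succinyl-CoA by a chain of enzymes that begins in the mitochondrion, passes through the cytosol and ends in the mitochondrion, where iron is inserted. Alas2 is the erythroid form of the first and rate-limiting enzyme, Alad joins its product into porphobilinogen, Uros and Urod act in the cytosol on uroporphyrinogen, and Cpox, Ppox and Fech complete the ring and insert iron. Red cell precursors need large amounts of heme for haemoglobin, and the mouse spleen is a site of red cell formation in the adult. The Alad gene is known to be duplicated in some inbred mouse strains, DBA/2 among them, and gene copy number was not measured here.

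Promoter sequence is shown for Alas2, Alad and Urod. Alas2 had the largest single change of any measured enzyme, at high dose, but not the largest in every comparison. Alad differed between the strains, and Urod followed the red cell markers most closely. Sequences are from RefSeq (GRCm38.p6), read 5′ to 3′ on the strand of the gene, and end at the base before its annotated start (for Urod, before the first base inside the gene). Capitals mark matches on either strand to a GATA motif (AGATAA or TGATAA), named after erythroid GATA factors, or to a CACCC-box motif (CCNCNCCC) of the kind that KLF factors bind. The stretches are chrX:150547167-150547416 (plus strand) for Alas2, chr4:62520064-62520313 (minus strand) for Alad and chr4:116994437-116994663 (minus strand) for Urod.
Alas2: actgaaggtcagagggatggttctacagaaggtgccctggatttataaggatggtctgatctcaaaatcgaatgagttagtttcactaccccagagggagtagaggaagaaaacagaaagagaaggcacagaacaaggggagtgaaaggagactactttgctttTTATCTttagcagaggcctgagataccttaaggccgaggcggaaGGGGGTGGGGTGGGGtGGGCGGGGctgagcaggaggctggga
Alad: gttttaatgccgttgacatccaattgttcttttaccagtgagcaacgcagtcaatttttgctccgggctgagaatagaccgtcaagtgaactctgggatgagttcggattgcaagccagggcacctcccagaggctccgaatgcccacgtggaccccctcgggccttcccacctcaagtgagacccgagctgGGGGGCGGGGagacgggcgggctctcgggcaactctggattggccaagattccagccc
Urod: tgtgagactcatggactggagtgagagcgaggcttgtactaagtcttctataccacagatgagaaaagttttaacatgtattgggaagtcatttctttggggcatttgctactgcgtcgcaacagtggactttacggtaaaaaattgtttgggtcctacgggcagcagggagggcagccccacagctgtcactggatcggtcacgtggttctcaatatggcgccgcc
The Alas2 window held 1 GATA match, which began 86 bases before the start, and 4 CACCC matches that began 42, 40, 35 and 26 bases before it, of which the first 3 overlap. In the Alad window shown there were 2 overlapping CACCC matches and 0 GATA matches, and the Urod window had 0 of both. A second Alad window in the table had 4 CACCC matches. The Ppox window had neither motif either, and Cpox had 1 GATA match. Of 2 Uros windows, both inside the annotated gene, 1 held a GATA match and 1 a CACCC match, and no window of Fech was analysed here. Of 32851 mouse promoter windows of 250 bases, 16.6% held a GATA match, 45.9% a CACCC match and 4.52% both. A match describes letters and was not tested as a binding site.

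Alas2 was the member with the widest range over the 6 groups. Its normalized log2 signal was 14.51, 15.47, 15.07 and 14.24 in the C57BL/6J control pools, 13.92, 13.35, 14.26 and 12.75 at low dose, and 10.11, 10.84, 10.37 and 10.75 at high dose. The high dose pools lay far below the other C57BL/6J groups, while the highest low dose pool (14.26) touched the range of the controls. In DBA/2J the values were 15.30, 15.03, 15.34 and 14.70 in control, 15.60, 14.22 and 15.60 at low dose, and 13.17, 12.76, 13.72 and 13.77 at high dose. Only the high dose pools of DBA/2J stood apart from the other pools of that strain, and they overlapped with C57BL/6J low dose. By group mean the order was DBA/2J low dose (15.14 ± 0.80, SD, n = 3), DBA/2J control (15.09 ± 0.30, n = 4), C57BL/6J control (14.82 ± 0.55, n = 4), C57BL/6J low dose (13.57 ± 0.66, n = 4), DBA/2J high dose (13.35 ± 0.48, n = 4) and C57BL/6J high dose (10.52 ± 0.34, n = 4). All neighbours in this order overlapped except the last pair.

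Alad, the second enzyme, separated the strains. Its log2 values were 13.66, 14.64, 13.67 and 13.97 in C57BL/6J control, 12.63, 12.68, 13.18 and 12.27 at low dose and 11.94, 12.35, 12.59 and 12.21 at high dose. In DBA/2J they were 15.41, 15.21, 15 and 14.91 in control, 15.40, 14.91 and 15.53 at low dose and 14.31, 14.29, 14.34 and 14.46 at high dose. Every DBA/2J control and low dose pool lay above every C57BL/6J pool, and every DBA/2J high dose pool lay above every C57BL/6J pool but control pool 2.

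The cytosolic enzymes Uros and Urod kept a shared order of the groups. Uros, which closes the ring of uroporphyrinogen, ranged from 10.23 to 10.99 in C57BL/6J control, 8.58 to 9.65 at low dose and 8.59 to 8.67 at high dose, and in DBA/2J from 10.62 to 11.67, 10.45 to 12.12 and 9.18 to 9.93. Urod, which removes carboxyl groups from uroporphyrinogen, ranged from 14.01 to 14.86, 12.75 to 13.85 and 12.44 to 12.64 in C57BL/6J, and from 14.47 to 15.12, 14.37 to 15.48 and 13.33 to 13.94 in DBA/2J. Neither enzyme's control pools overlapped with the irradiated pools in C57BL/6J, or with the high dose pools in DBA/2J.

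Ppox, the mitochondrial protoporphyrinogen oxidase, was the exception in which group lay lowest. It ranged from 9.63 to 10.24 in C57BL/6J control, 8.21 to 9.00 at low dose and 8.04 to 8.64 at high dose, and from 9.34 to 10.37, 8.92 to 10.90 and 8.15 to 8.71 in DBA/2J. Its high dose groups lay together, at 8.43 ± 0.26 in C57BL/6J and 8.39 ± 0.27 in DBA/2J (SD, n = 4 each), whereas for the other 5 measured members C57BL/6J high dose was lowest and did not overlap with DBA/2J high dose.

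Fech, the ferrochelatase that inserts iron, came near the background in some pools. Its log2 values were 8.82, 9.35, 9.07 and 9.26 in C57BL/6J control, 7.61, 7.63, 8.43 and 6.69 at low dose and 6.53, 6.19, 6.21 and 6.51 at high dose. In DBA/2J they were 10.51, 9.13, 9.90 and 9.65 in control, 10.72, 8.59 and 10.91 at low dose and 7.47, 7.73, 8.66 and 8.35 at high dose. The signals before normalization were 675 to 1200 in DBA/2J control, while those of the C57BL/6J high dose pools, 147 to 201, and of C57BL/6J low dose pool 4, 173, stood close to the signal at a detection p of 0.05, which was 104 to 140 over the arrays, so changes of Fech depend on the background correction.

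**Figure D1:**
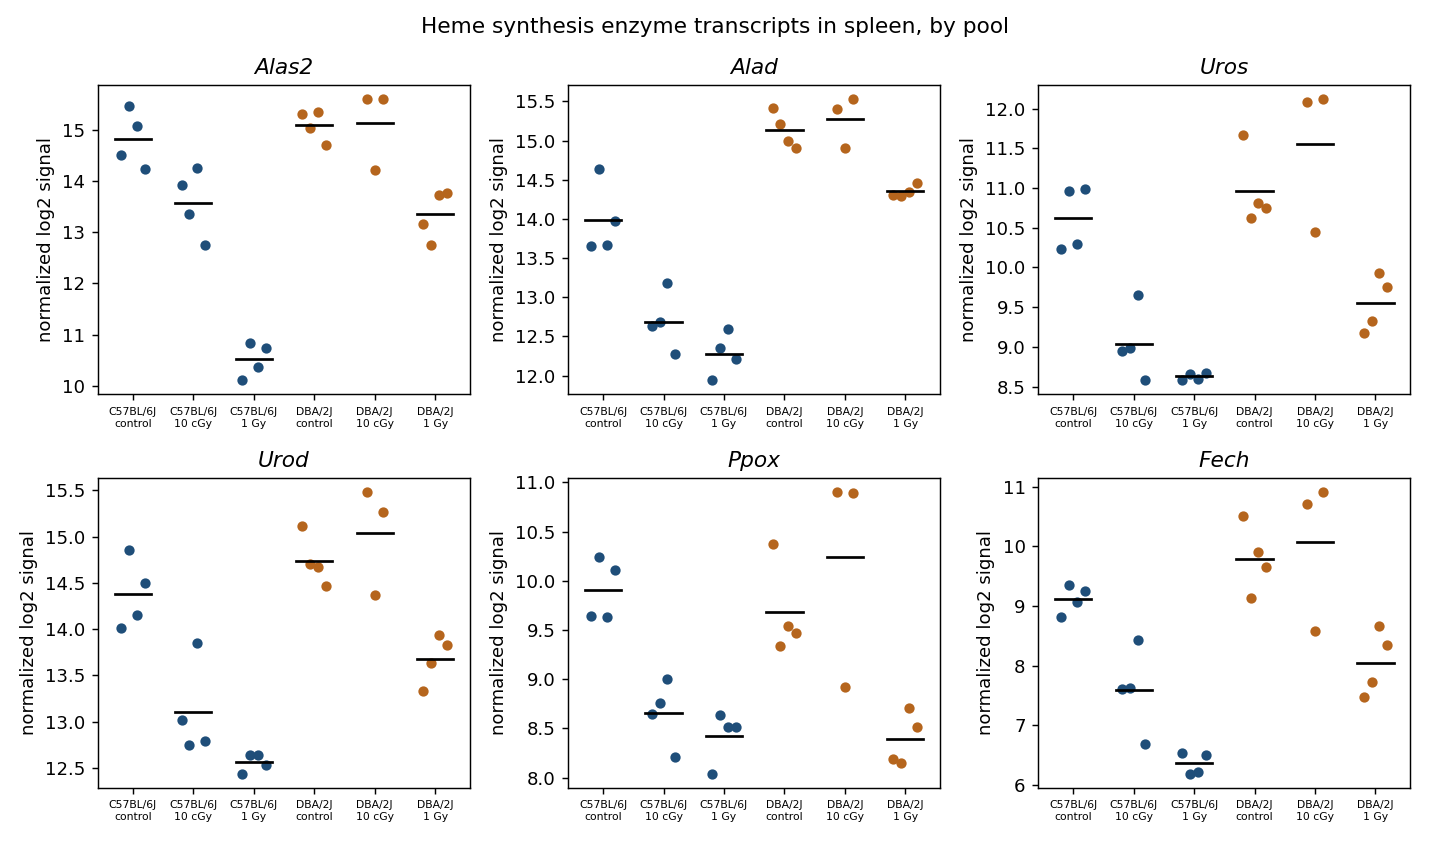
Normalized log2 signal (y axis, a separate scale for each gene) of the 6 measured heme synthesis enzymes in the strain and dose groups (x axis), with 1 point per pool and a bar at the group mean. For Alas2 the C57BL/6J high dose pools lie between 10.11 and 10.84, below all other pools, and in every panel 1 of the 3 DBA/2J low dose pools lies below the other two.

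The spleen label was checked by marker genes. The B cell genes Cd79a, Cd79b and Ms4a1, the T cell genes Cd3d and Cd3e and the red pulp macrophage gene Spic were detected on every array. Transcripts of the pancreas, which lies beside the spleen, stood out in C57BL/6J control pool 1 and high dose pool 1. The mean log2 value of 8 measured pancreas markers was 14.26 and 14.49 in these pools and 5.18 to 7.47 in the other pools. Between 14233 and 16002 probes were detected per array, and the number of arrays limits the precision.

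High dose against control in C57BL/6J asked what 1 Gy changed in that strain, and all 6 measured enzymes fell, where 4.66% of all features fell. Alas2 changed by -4.30 ± 0.34 (log2 fold change ± SE), a 19.8-fold decrease with an adjusted p = 6.12e-08 by limma with Benjamini-Hochberg adjustment over all features. Fech followed at -2.77 ± 0.41 (adjusted p = 9.60e-05), Uros at -1.99 ± 0.31 (adjusted p = 0.000189) and Urod at -1.82 ± 0.25 (adjusted p = 3.65e-05). Alad fell by 1.71 ± 0.21 (adjusted p = 1.05e-05) and Ppox by 1.48 ± 0.32 (adjusted p = 0.00491) on the log2 scale. In 6 of 6 members every high dose pool lay below every control pool, as it did for 7.74% of features. The members' median change was -1.90, against 0.05 for all features.

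These falls stayed called when any 1 of the 8 pools was left out, and without both pools that carried pancreas transcripts. With the background that limma infers from the detection p-values (neqc), which raises the floor, Fech was at -0.75 ± 0.35 (adjusted p = 0.232) and Ppox at -1.06 ± 0.34 (adjusted p = 0.0704), and 4 of 6 members were called.

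Red cell marker genes moved with the enzymes. Of 22 listed erythroid markers 18 were measured and 17 fell at high dose in C57BL/6J, with a median change of -4.67, and their mean log2 value went from 10.99 to 11.98 in control pools to 7.05 to 7.73 at high dose. Among those that fell were Slc4a1, the chloride and bicarbonate exchanger of red cells, at -4.89, Ermap at -5.30 and Rhag at -4.85. Alas2 lay near that median, and the other 5 enzymes changed less than it. In whole spleen RNA, fewer cells of a type and less RNA per cell cannot be told apart, and the part of red cell precursor numbers in these falls was not tested. Granulocyte markers fell as well, 10 of 10 measured, from a mean of 12.92 in control to 9.31 at high dose, while the B cell marker mean was 10.39 in control and 10.72 at high dose and the T cell marker mean 10.40 and 10.95. Platelet and megakaryocyte markers fell in 6 of 6, with a median change of -1.32.

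Low dose against control in C57BL/6J asked the same of 10 cGy, and again all 6 enzymes were lower, where 2.96% of features fell. The changes lay close together, from -1.25 ± 0.32 for Ppox to -1.58 ± 0.31 for Uros. Uros (adjusted p = 0.00487), Alad (-1.29 ± 0.21, adjusted p = 0.00111) and Urod (-1.28 ± 0.25, adjusted p = 0.00370) stayed called whichever of the 8 pools was left out. Fech (-1.53 ± 0.41, adjusted p = 0.0376), Ppox (adjusted p = 0.0313) and Alas2 (-1.25 ± 0.34, adjusted p = 0.0431) stood near the threshold. In 5 of 6 members the groups did not overlap, Alas2 being the exception, against 6.39% of features lower without overlap.

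Alas2 lost its low dose call without control pool 1, 2 or 3 or low dose pool 1, 2 or 4 (adjusted p up to 0.17). Ppox lost it without control pool 2 or 4 or low dose pool 1, 2 or 4 (up to 0.114), and Fech without control pool 2, 3 or 4 or low dose pool 1, 2 or 4 (up to 0.140). The count of called members was 3 without control pool 2 or low dose pool 1, 2 or 4, and 3 with neqc, with the authors' processed values or with no detection filter. The value of Fech was -0.57 with neqc and -0.69 with the authors' values, and that of Ppox was -0.79 with the authors' values. Fech also lost its call with no background correction (limma adjusted p = 0.0633), offset 50 (0.0513) and without both pools with pancreas transcripts (0.0605). Alas2 lost its call without those pools (0.0554) and with only the groups of the comparison (0.0721). Of the erythroid markers 17 of 18 fell, with a median of -2.53, and of the granulocyte markers 10 of 10, with a mean of 9.32 against 12.92 in control. Platelet and megakaryocyte markers fell in 6 of 6, with a median of -1.46, and the part of these markers in the enzyme changes was not tested.

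The high dose was set against the low dose within C57BL/6J as well. Alas2 changed by -3.05 ± 0.34 from low to high dose, an 8.30-fold difference (adjusted p = 3.80e-05), and was called where 0.221% of features were. The other 5 members, at -0.23 ± 0.32 (Ppox) to -1.23 ± 0.41 (Fech, adjusted p = 0.527), were not called. With array weights in the fit, Fech was called too (-1.33 ± 0.30, adjusted p = 0.0482), making 2 members. All 18 erythroid markers had a value below 0 in this comparison, with a median of -1.87, and 3 of them were called, while 0 of 10 granulocyte markers were. The part of the red cell markers in the Alas2 difference was not tested.

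Whether Alas2 moved by more than the other enzymes was asked by subtracting each enzyme's log2 value from that of Alas2 in the same pool. There were 30 comparisons in all, and they are not independent, since they share the Alas2 values. The same pools showed its large high dose change in C57BL/6J, so the test does not stand apart from that result. At high dose against control in C57BL/6J the Alas2 change minus that of the others was -1.54 ± 0.34 (Fech) to -2.82 ± 0.30 (Ppox) on the log2 scale. Each of these 5 differences gave p = 0.0286 in a two-sided exact permutation test of 4 against 4 pools, the smallest p that design allows, and an adjusted p of 0.0714 over the 30. High against low dose in C57BL/6J gave the same p-values, with -1.82 ± 0.26 (Fech) to -2.82 ± 0.22 (Ppox). The place of Fech in this order depended on the background correction. Its high dose difference from Alas2 in C57BL/6J was -3.94 ± 0.34 with neqc, further from 0 than that of Ppox (-3.63 ± 0.34), and -3.33 ± 0.30 with the authors' values. At low dose against control in C57BL/6J the differences were 0.32 ± 0.38 at most (exact permutation p of 0.4 or more). That for Fech was -0.71 ± 0.38 with neqc (exact permutation p = 0.114). At low dose in DBA/2J the differences ran from -0.11 ± 0.31 (Alad) to -0.54 ± 0.23 (Uros, exact permutation p = 0.114). At high dose in DBA/2J Alas2 changed by a further -0.96 ± 0.25 against Alad and -0.68 ± 0.21 against Urod (exact permutation p = 0.0286 and adjusted p = 0.0714 for both), and by 0.00 ± 0.29 against Fech. That value for Fech was -0.69 ± 0.31 with neqc (exact permutation p = 0.0857) and -0.94 ± 0.25 with the authors' values (exact permutation p = 0.0286, before adjustment). Against Ppox the difference was -0.45 ± 0.24 (exact permutation p = 0.2), -0.92 ± 0.30 with neqc (0.0571) and -1.16 ± 0.25 with the authors' values (0.0286). Against Uros it was -0.32 ± 0.25 (exact permutation p = 0.257), -0.15 ± 0.28 with neqc (0.629) and -0.80 ± 0.25 with the authors' values (0.0286). With the background correction used here none of the 30 passed after adjustment, and the p-values of the alternatives were not adjusted.

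High dose against control in DBA/2J gave 5 of 6 members lower, where 1.15% of features fell. Fech changed by -1.74 ± 0.41 (adjusted p = 0.0326), Alas2 by -1.74 ± 0.34 (adjusted p = 0.0122), Uros by -1.42 ± 0.31 (adjusted p = 0.0256), Ppox by -1.29 ± 0.32 (adjusted p = 0.0471) and Urod by -1.06 ± 0.25 (adjusted p = 0.0314). Alad, at -0.78 ± 0.21, missed the threshold (adjusted p = 0.0601), and was called with array weights (-0.67, adjusted p = 0.0169) and with only the groups of the comparison in the fit (-0.78, adjusted p = 0.0102), each of which gave 6 of 6 members in limma. All 6 members had no overlap between the groups, against 5.92% of features lower without overlap, and the members' median was -1.35, against 0.03 for all features.

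These DBA/2J calls rested on few pools. Limma called 0 of 6 without control pool 1 or high dose pool 1 or 2, although 6 of 6 had an unadjusted p under 0.05 in each case. It called 1 without control pool 3, 2 without high dose pool 4, 3 without control pool 2 or 4 and 4 without high dose pool 3. Alas2 lost its call only in the first 3 of these cases (adjusted p up to 0.0677) and Ppox in all 8. With neqc or the authors' values 2 members were called, with Fech at -1.08 and -1.003 and Ppox at -0.86 and -0.78, and with no detection filter 1. Ppox also lost its call with no background correction (limma adjusted p = 0.0590), offset 50 (0.0506) and median scaling (0.0737). All 18 erythroid markers had a value below 0, with a median of -1.66, and 3 of them were called. Their mean was 9.70 to 10.83 at high dose against 11.64 to 12.44 in control. The granulocyte marker mean was 10.70 in control and 11.08 at high dose. What part the red cell markers had in the enzyme changes was not tested.

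Low dose against control in DBA/2J gave no call among the members, although 10.3% of features were called. The changes lay between 0.05 ± 0.37 (Alas2) and 0.59 ± 0.34 (Uros, adjusted p = 0.260), and limma gave 0 of 6 members both after adjustment and at an unadjusted p under 0.05. Low dose pool 2 was the lowest of its group in 6 of 6 members. Its erythroid marker mean was 11.23, against 12.87 and 13.02 in the other pools, and its T cell marker mean was 10.64, against 9.02 and 8.98. Without that pool 3 members were called higher, Ppox at 1.21 (adjusted p = 0.00177), Uros at 1.14 (adjusted p = 0.00592) and Fech at 1.02 (adjusted p = 0.0453), and with array weights 4 were, Urod being the fourth (0.67 ± 0.24, adjusted p = 0.0296). Granulocyte markers were higher in all 3 low dose pools, 13.66 to 14.40 against 9.58 to 12.47 in control, and 5 of 6 platelet and megakaryocyte markers were called higher, with a median of 1.21 over the 6. B cell markers had 4 of 5 called lower, with a median of -1.01, and T cell markers 2 of 5, with a median of -0.80. The part of these markers in the enzyme values was not tested.

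High dose against low dose in DBA/2J gave 6 of 6 members lower, where 15.9% of features were lower, with changes from -0.94 ± 0.23 for Alad to -2.02 ± 0.44 for Fech. These calls were kept without any 1 of the 7 pools, with an adjusted p of at most 0.0294. In Fech the groups overlapped, since low dose pool 2 (8.59) lay below high dose pool 3 (8.66), and in the other 5 they did not, against 14.7% of features. Erythroid markers had 16 of 18 called lower, with a median of -2.28, and granulocyte markers 10 of 10, with a median of -3.14. Platelet and megakaryocyte markers had 6 of 6 below 0 and 3 called. T cell markers had 5 of 5 higher, with a median of 1.15, and B cell markers 4 of 5, with a median of 1.18. The part of these markers in the enzyme differences was not tested.

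**Figure D2:**
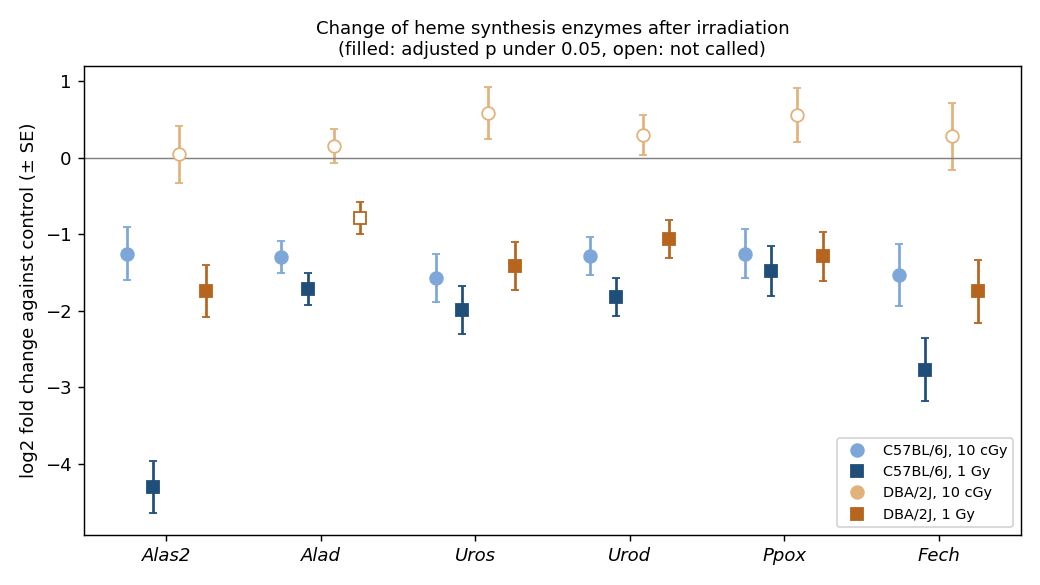
Log2 fold change against the control of the same strain (y axis, bars ± SE) for each enzyme (x axis), with circles for 10 cGy and squares for 1 Gy, filled where the adjusted p is under 0.05. The C57BL/6J high dose value of Alas2 (-4.30) lies furthest from 0, and the DBA/2J low dose values, from 0.05 to 0.59, are all open.

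Between the control groups only Alad was called, where 12% of features were. It was 1.15 ± 0.21 higher in DBA/2J, a 2.22-fold difference (adjusted p = 0.000427), with no overlap between the pools, and it stayed called under every alternative, pools left out included (adjusted p up to 0.00573). The other members differed by -0.23 ± 0.32 (Ppox) to 0.67 ± 0.41 (Fech) and were not called. The erythroid marker mean was 11.49 in C57BL/6J and 11.89 in DBA/2J control. A sequence variant of DBA/2J under a probe could alter its signal, and this was not tested.

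The strain difference of the high dose effect, the DBA/2J change minus the C57BL/6J change, was called for Alas2 alone, where 0.565% of features were. It was 2.56 ± 0.48 (adjusted p = 0.0112), and the other members lay between 0.19 ± 0.46 (Ppox) and 1.02 ± 0.58 (Fech). The Alas2 call held without any 1 of the 16 pools (adjusted p up to 0.0397). It was lost with the authors' processed values (2.43, adjusted p = 0.0705) and without both pools with pancreas transcripts (2.53, adjusted p = 0.0501). Erythroid markers had 9 of 18 called higher in this comparison, with a median of 2.94 and all 18 above 0. Granulocyte markers had 9 of 10 and platelet and megakaryocyte markers 4 of 6 called higher. The part of these markers in the Alas2 difference was not tested.

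For the low dose effect 5 of 6 members differed between the strains, where 21.4% of features did. Uros gave 2.16 ± 0.46 (adjusted p = 0.00310), Fech 1.81 ± 0.60 (0.0359), Ppox 1.81 ± 0.48 (0.0112), Urod 1.58 ± 0.36 (0.00491) and Alad 1.45 ± 0.31 (0.00315), each an adjusted p from limma. Alas2, at 1.30 ± 0.50, did not pass (adjusted p = 0.0695). Without DBA/2J low dose pool 1 the count was 3, with Ppox and Fech lost. Fech also lost its call without DBA/2J low dose pool 3, DBA/2J control pool 2, 3 or 4, C57BL/6J control pool 2 or 4 or C57BL/6J low dose pool 1, 2 or 4. It was also lost with neqc (1.05, adjusted p = 0.156), the authors' values (0.97, adjusted p = 0.0807), median scaling (1.64, adjusted p = 0.0562), no detection filter (1.81, adjusted p = 0.0706) and only the groups of the comparison (1.81, adjusted p = 0.0767). Alas2 gained a call with array weights (1.57, adjusted p = 0.0116), and without DBA/2J low dose pool 2, C57BL/6J control pool 4 or C57BL/6J low dose pool 3. Erythroid markers had 17 of 18, granulocyte markers 10 of 10 and platelet and megakaryocyte markers 6 of 6 higher, and their part in the enzyme differences was not tested.

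The rest of heme metabolism was followed in 40 further listed genes, of which 32 were measured. At high dose in C57BL/6J 12 of the 32 fell, where 4.66% of all features did, at low dose 11 (2.96% of all features), and at high dose in DBA/2J 6 (1.15%). The low dose count was 5 with neqc, 6 with the authors' values and 7 without C57BL/6J control pool 2. The DBA/2J high dose count was 2 without control pool 1 or high dose pool 1, 3 with neqc and without control pool 3 or high dose pool 2, 11 with array weights and 12 with only the groups of the comparison. Limma called 0 of the 32 at low dose in DBA/2J, where 10.3% of all features were called. An unadjusted p under 0.05 was found there for 7 of the 32, and for 4785 of all 17176 features. Without DBA/2J low dose pool 2 it called 13 there, and with array weights 17. The median of the 32 was -0.21 at high dose in C57BL/6J, against 0.05 for all features. Alas1, the form of the first enzyme that most tissues use, was at -0.03 ± 0.12 at high dose and -0.12 ± 0.12 at low dose in C57BL/6J, where Alas2 was at -4.30 and -1.25, and Alas1 was called in none of these comparisons.

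Among 11 measured genes of mitochondrial supply and transport 6 fell at high dose in C57BL/6J. Slc25a37 (mitoferrin), which brings iron into the mitochondria of red cell precursors, fell by 2.89 ± 0.34 (adjusted p = 6.72e-06), and Abcb10, an inner membrane transporter that stabilises it, by 2.71 ± 0.34 on the log2 scale. The porphyrin transporter Abcb6 was at -1.89 ± 0.34, the glycine carrier Slc25a38 at -1.39 ± 0.32, the glutathione carrier Slc25a39 at -1.04 ± 0.16 and the porphyrinogen transporter Tmem14c at -0.71 ± 0.16. Slc25a28, the mitoferrin of other tissues, was at 0.24 ± 0.15 and not called. At low dose in C57BL/6J these 6 fell by 0.60 (Slc25a39) to 1.96 (Abcb10). In DBA/2J at high dose 8 of the 11 had a value below 0 and 3 were called, Abcb10 (-1.97 ± 0.34), Slc25a37 (-1.91 ± 0.34) and Slc25a39 (-0.86 ± 0.16).

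Of 6 iron-sulphur cluster and iron sensing genes 1 fell at either dose in C57BL/6J, the glutaredoxin Glrx5, which Fech depends on for its cluster, with -1.71 ± 0.26 at high and -1.32 ± 0.26 at low dose. It was at -1.19 ± 0.26 at high dose in DBA/2J (adjusted p = 0.0226). Of 10 genes of heme export, uptake and breakdown 1 fell in C57BL/6J, the biliverdin reductase Blvrb, at -1.13 ± 0.26 and -1.18 ± 0.26. Hmox1, the heme oxygenase that macrophages use to break down heme, was at 0.54 ± 0.20 at high dose in C57BL/6J (adjusted p = 0.103). Between high and low dose in DBA/2J it was 1.07 higher, the 1 gene of the 32 called higher, where 3455 of 17176 features were. In that comparison 15 of the 32 were called lower, where 15.9% of features were. Of 7 measured macrophage markers 5 were called higher there, with a median of 0.77. At high dose in C57BL/6J 0 of the 7 were called, with a median of 0.46. The part of these markers in the Hmox1 values was not tested.

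Of the 4 measured regulators all fell at high dose in C57BL/6J. The erythroid transcription factor Klf1 was at -5.19 ± 0.51 (adjusted p = 8.71e-07), Nfe2 at -3.35 ± 0.35, Gata1 at -2.80 ± 0.41 and Eif2ak1, a kinase that senses heme, at -1.22 ± 0.26. At low dose Klf1 (-3.04 ± 0.51), Nfe2 (-2.45 ± 0.35) and Gata1 (-2.24 ± 0.41) fell. In DBA/2J at high dose all 4 had a value below 0 and 2 were called, Nfe2 (-1.52 ± 0.35) and Eif2ak1 (-1.05 ± 0.26). Klf1 was the 1 gene of the 32 whose high dose effect differed between the strains, where 0.565% of all features did. The difference was 3.84 ± 0.72 (adjusted p = 0.0107), and that call was lost with neqc and with the authors' values. For the low dose effect 14 of the 32 differed, where 21.4% of all features did. All 14 were higher in the DBA/2J effect, among them Gata1 (3.17 ± 0.60) and Abcb10 (2.74 ± 0.49). That count was 8 without DBA/2J low dose pool 1 and 9 without DBA/2J low dose pool 3. Between the control groups the protease subunit Clpx (0.41 ± 0.13, adjusted p = 0.0495) and hemopexin, Hpx (0.44 ± 0.14, adjusted p = 0.0428), were higher in DBA/2J, 2 of the 32 where 12% of all features were called. With any 1 of the 8 pools left out 0 or 1 were called, 0 without C57BL/6J control pool 3 or DBA/2J control pool 1 or 3, and the other alternatives gave 1 to 4.

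**Figure D3:**
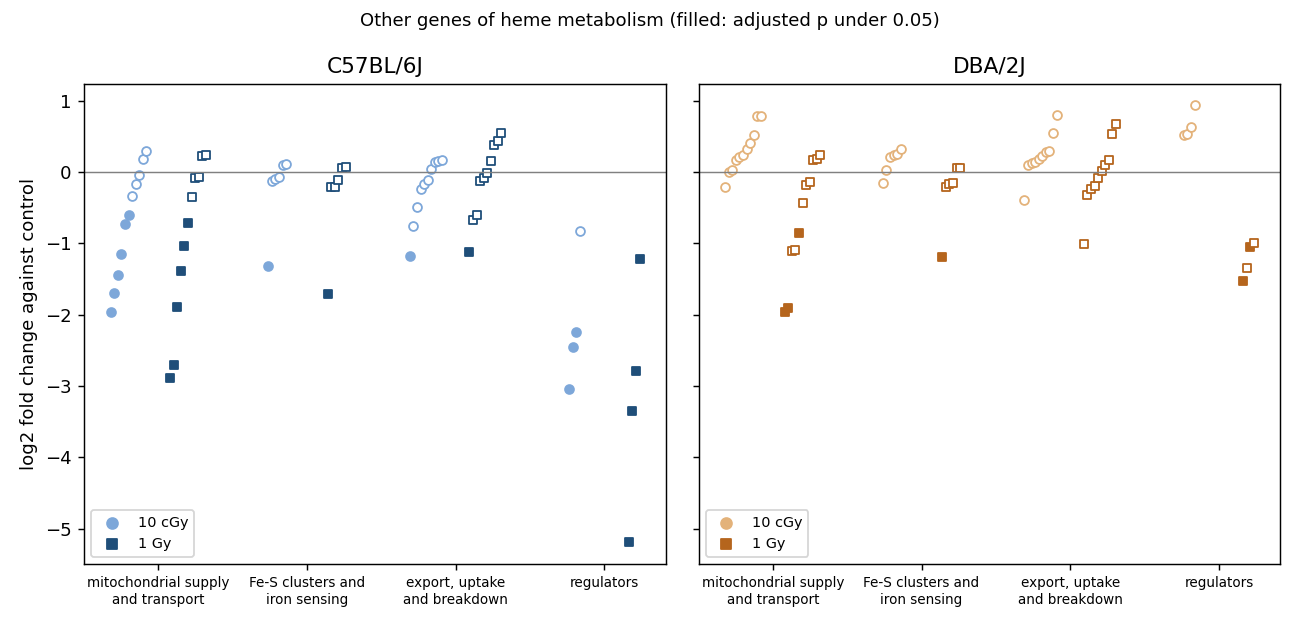
Log2 fold change against control (y axis) for other measured genes of heme metabolism in 4 lists (x axis), 1 point per gene, circles for 10 cGy and squares for 1 Gy, filled where the adjusted p is under 0.05, in C57BL/6J (left) and DBA/2J (right). In C57BL/6J all 4 regulators are filled at 1 Gy, down to -5.19, and in DBA/2J no circle is filled.

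Across the 23 arrays the members rose and fell together, which is a description over arrays that share groups, tissue and normalization. Pearson's r between 2 members was 0.66 (Alad with Ppox) to 0.98 (Uros with Urod), with a median of 0.88 over 15 pairs, and 0.58 to 0.95 after group means were removed. With the erythroid marker mean r was 0.81 (Ppox) to 0.98 (Urod), and 0.73 (Alas2) to 0.93 (Urod) without group means. Within groups some pools were high or low in most members. C57BL/6J low dose pool 3 was highest of its group in 6 of 6 members, C57BL/6J control pool 2 in 5 and DBA/2J control pool 1 in 5. DBA/2J low dose pool 2 was lowest of its group in 6, C57BL/6J low dose pool 4 in 5, C57BL/6J high dose pool 1 in 5 and C57BL/6J control pool 1 in 4. High dose pool 1 and control pool 1 of C57BL/6J are the pools with pancreas transcripts.

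**Figure D4:**
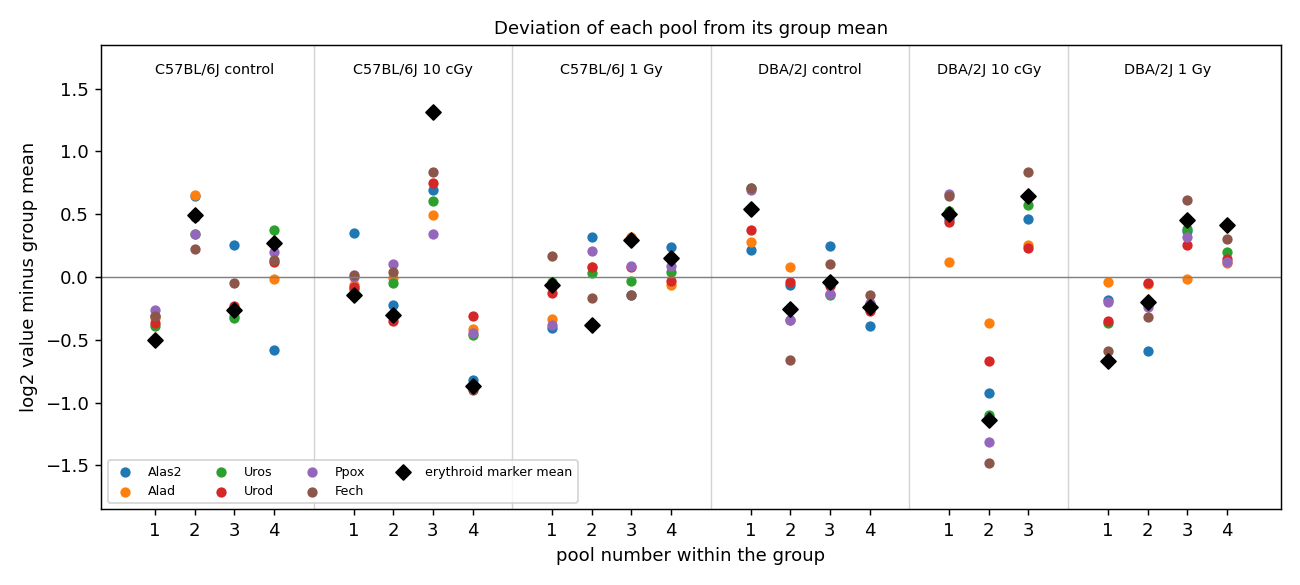
Log2 value of each pool minus the mean of its group (y axis) for the 6 enzymes (coloured points) and the mean of 18 erythroid markers (black diamonds), by pool number within each strain and dose group (x axis). DBA/2J low dose pool 2 lies below its group mean and C57BL/6J low dose pool 3 above it in every enzyme and in the erythroid mean.

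The features with a symbol whose log2 values were most like each member over the 23 arrays were named by Pearson's r. For Alas2 they were Tfdp2 (0.961), Cdr2 (0.958) and Rec114 (0.955), and for Alad Slc26a1 (0.980), the water channel Aqp1 (0.964) and Samd14 (0.961). Uros was most like Ptdss2 and Txnrd2 (0.992 each) and Asb1 (0.991), and Urod most like Tmod1 (0.994), Dmtn (0.993) and Dyrk3 (0.991), of which Tmod1 and Dmtn encode parts of the red cell membrane skeleton. Ppox was most like Smox (0.965), Arrb1 (0.963) and Gins4 (0.959). For Fech the features were Cdr2 and Mkrn1 (0.983 each) and Tmod1 (0.982). Aqp1 is among the erythroid markers, and none of the others is in a list used here.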

How the data were processed

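RNA of pooled spleens was hybridised to 23 Illumina arrays of 34492 probes. The authors deposited 1 linear intensity per probe and array, not normalized, with a detection p-value beside each, per the file headers. The authors also deposited processed values on a log2 scale, for which lumi was used per the submitters' processing notes (version, transform and centring not given in the sources used here), and these served as an alternative. Groups came from the strain and treatment labels.

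Signals were corrected with normexp in limma 3.58.1 (R 4.3.3), quantile normalized and put on the log2 scale. The background mean of each array was the median signal of probes with a detection p within 0.01 of 0.5, and its SD was the median signal of probes near 0.16 minus that mean, with an offset of 16. The window replaced an interpolation, which failed because some bright probes carry high detection p-values. Background means were 79.1 to 108.8 and SDs 13.6 to 20.2. Probes detected at p under 0.05 on 3 or more arrays were kept (18423), with gene symbols from the platform annotation and the brightest probe per symbol, giving 17176 features, 11348 of them with a symbol. A model of 6 group means over all arrays (lmFit, eBayes) gave 9 comparisons, adjusted by Benjamini-Hochberg over all features and called at 0.05, and was tested on simulated data. At most 1 probe of 34492 had exactly equal signals in 2 arrays of a group.

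All 7 members, the other heme genes that passed the filter and the 3 features most like each member were eligible to be named, with markers in list order. Members and lists were chosen with earlier results of these data known. Alternatives covered background, offset, scaling, filter, probe choice, samples, array weights and each pool left out.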

Additional observations from a re-analysis of the deposited data

Results flagged for a closer look

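The strain difference of a dose effect passed its test in limma (adjusted p under 0.05) for 6 results, which are given as values. For the high dose it was Alas2, whose change was 2.56 higher in DBA/2J than in C57BL/6J on the log2 scale. For the low dose it was Uros at 2.16, Fech and Ppox at 1.81 each, Urod at 1.58 and Alad at 1.45. These low dose differences combine falls in C57BL/6J with uncalled values above 0 in DBA/2J, and both control groups enter them. No pool stood far from the other 3 of its group in any of 30 sets of 4 pools (5 groups by 6 members) by Dixon's test, which chance passes in about 1 of 20 groups. DBA/2J low dose has 3 pools and was not tested, and it holds pool 2, the lowest of its group in 6 of 6 members.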

How the results depend on the processing

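No paired analysis was possible because the pool numbers follow the order of deposition and pair no samples between groups. A slide block was not run, since the file headers used here give no slide. No member's called change turned direction under the alternatives run. At high dose in C57BL/6J 4 to 6 members were called, and all 6 with any 1 pool left out. At low dose in C57BL/6J the count of 6 became 3 with neqc, with the authors' processed values and with no detection filter, and ranged from 3 to 6 with 1 pool left out. At high dose in DBA/2J the count of 5 became 2 with neqc and with the authors' values and 1 with no detection filter, and ranged from 0 to 4 with 1 pool left out. At low dose in DBA/2J the count of 0 became 4 with array weights and ranged from 0 to 3. High against low dose in C57BL/6J gave 2 with array weights in place of 1. The strain difference of the high dose effect gave 2 with array weights, and 0 with the authors' values and without the 2 pools with pancreas transcripts, an alternative chosen after seeing the data (2 and 3 members at an unadjusted p under 0.05). That of the low dose effect ranged from 3 to 6 with 1 pool left out. Over single members, 449 of 510 values with a pool left out kept their side of the threshold, 55 lost a call and 6 gained one, and under other settings 531 did, 36 lost a call and 9 gained one. The cause of these changes was not tested, except that more features are tested without the filter.

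Scaling moved the balance of all features. Median scaling shifted the median change of all features by -0.117 at low dose in DBA/2J, 0.188 for high against low dose in DBA/2J and -0.117 for the low dose strain difference, and members' changes there are relative to it. Of called features 42.6% were higher at high dose in C57BL/6J (60.2% with neqc, 53.6% with the authors' values), 17% at low dose (34.7% and 29.2%), 30.3% at high dose in DBA/2J (59.4% and 55.1%, 41.5% with median scaling) and 33.4% at low dose (52.1% and 46.3%, 12% with median scaling). Signal over background limits Fech most, then Ppox and Uros.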
